A study of Mus musculus with 2 samples.

Results

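Several proteins take part in the release, delivery and uptake of fatty acids. Of their genes, 8 are described here, chosen by name from 18193 genes that the array annotation names. They are Lpl, which encodes lipoprotein lipase, Vldlr, which encodes the very low density lipoprotein receptor, Cd36, which encodes the fatty acid translocase, and Slc27a1 to Slc27a5, which encode fatty acid transport proteins. Probe sets were taken by gene symbol, and 17 of the array carried these symbols. The genes and the gene lists used below were chosen with earlier results of these data known. Shares of all measured genes are therefore given beside them as background and test nothing. Livers came from male 129SvEJ mice aged 8 weeks, either PPARα-null (pparalpha -/-) or wild type. Both genotypes ate chow containing 0.2% fenofibrate for 7 days, so the drug was present in both groups. Liver RNA of 3 mice was pooled per genotype and each pool gave 1 expression array, which makes 2 arrays in all. With 1 array per genotype there was no replicate and no test, and every difference below is the size of a single comparison. No array of mice fed without fenofibrate was analysed here, so a difference present without the drug and a difference in the response to it cannot be told apart. The labels do not state how the Ppara allele was made.

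PPARα is a nuclear receptor that binds fatty acids and fibrate drugs, pairs with RXR and acts on target genes through direct repeats of a short hexamer. In the liver it is known as a regulator of fatty acid oxidation. Lipoprotein lipase releases fatty acids from the triglyceride of circulating lipoproteins, mostly at the capillaries of muscle and adipose tissue, and adult liver normally makes little of it. CD36 binds long-chain fatty acids and oxidised lipoproteins at the cell surface, and the Slc27 proteins join uptake to the formation of acyl-CoA.

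The sequence before the gene start was read for 6 of the 8 genes, all but Lpl and Slc27a5, from the RefSeq promoter table of build GRCm38.p6. These gave 9 windows of 250 bases. The windows were searched on both strands for the receptor hexamer AGGTCA, and for AGGTCANAGGTCA, a direct repeat of it with 1 spacer base, which is the arrangement that PPARα with RXR binds. The 2 windows that hold an exact hexamer are shown, with the hexamer in capitals. It lies on the reverse strand in both, so that it reads TGACCT. The Cd36 window is chr5:17835897-17836146 on the minus strand and the Slc27a2 window is chr2:126552774-126553023 on the plus strand, and both are printed in the direction of the gene.
Cd36: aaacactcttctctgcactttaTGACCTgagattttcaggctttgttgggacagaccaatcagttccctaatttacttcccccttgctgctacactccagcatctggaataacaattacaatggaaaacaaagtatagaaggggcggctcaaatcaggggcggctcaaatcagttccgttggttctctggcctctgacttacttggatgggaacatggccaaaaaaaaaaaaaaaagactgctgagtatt
Slc27a2: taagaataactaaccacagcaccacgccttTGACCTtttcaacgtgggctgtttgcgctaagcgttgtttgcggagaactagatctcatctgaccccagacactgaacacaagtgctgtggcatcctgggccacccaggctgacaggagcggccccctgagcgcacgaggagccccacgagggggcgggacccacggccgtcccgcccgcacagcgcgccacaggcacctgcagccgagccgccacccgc

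The hexamer starts at position -228 from the gene start in Cd36 and at -220 in Slc27a2. Of 32851 promoter windows of the same length, 14.0% hold it on either strand. The closest matches to the repeat in these windows are shown in the direction of the motif, with the hexamer bases that match in capitals. The spacer base, which may be any base, is in small letters and does not count as a difference.
Cd36: AaGTCAgAGGcCA
Slc27a2: AGGTCAaAGGcgt
The Cd36 match spans -63 to -51 on the reverse strand, differs from the repeat at 2 bases and does not overlap the exact hexamer. Of all windows, 3.24% hold a match at least as close. The Slc27a2 match spans -227 to -215 on the reverse strand, contains the exact hexamer and differs at 3 bases, which 21.3% of all windows reach. The 7 windows of Vldlr, Slc27a1, Slc27a3 and Slc27a4 hold no hexamer, and their closest matches to the repeat differ at 4 or 5 bases. An exact repeat stands in 11 of the 32851 windows, none of them of these genes. A match is a string of letters in this window, and binding was not measured.

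The values are signal intensities of the Affymetrix statistical algorithm on a linear scale, which the authors scaled to a target of 1000 on each array. A floor was set at the median signal of each array, 269.4 for PPARα-null and 287.8 for wild type, and lower signals were raised to it before log2 ratios of null over wild type were taken. Each gene was read at the probe set whose mean log2 signal was highest, and it counted as measured when either array reached the floor there. Where a single array reached the floor, the ratio is a lower limit, given as "at least" so many fold. Genes 2-fold or more apart were called. Among 13041 measured genes, 4.99% were called lower and 2.80% higher in null liver, and their median log2 ratio was -0.005. The scatter between probe sets of 1 gene had an SD of 0.42 on the log2 scale, over 10117 probe sets of 3917 genes. It leaves out the differences between mice and pools. Signals of different probe sets cannot be set against each other, so no order of abundance among the genes is given.

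Of the 8 genes, 7 were measured, all on both arrays, and 2 of the 7 were called lower in null liver, namely Cd36 and Lpl, where 4.99% of all measured genes were. None was called higher, where 2.80% of all measured genes were. The other 5 measured genes lay within 2-fold, from Vldlr at -0.83 to Slc27a5 at 0.39 on the log2 scale. Log2 ratios were under 0 for 6 of the 7 genes, against 50.4% of all measured genes. Their median was -0.64, which is 1.56-fold lower in null, with an SD of 1.73 across genes. At 1.5-fold, 5 of the 7 were lower, where the share of all measured genes was 14.8%, and 0 were higher, where that share was 11.0%.

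The targeted gene had lower signals on the null array at its 3 probe sets, from 36.0% to 50.6% of the wild-type signals. In null liver Ppara gave 3414, 2953 and 1551, against 7957, 5833 and 4312 in wild type. Since the disrupted exons are not stated, these signals check the labels only in part.

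**Figure D1:**
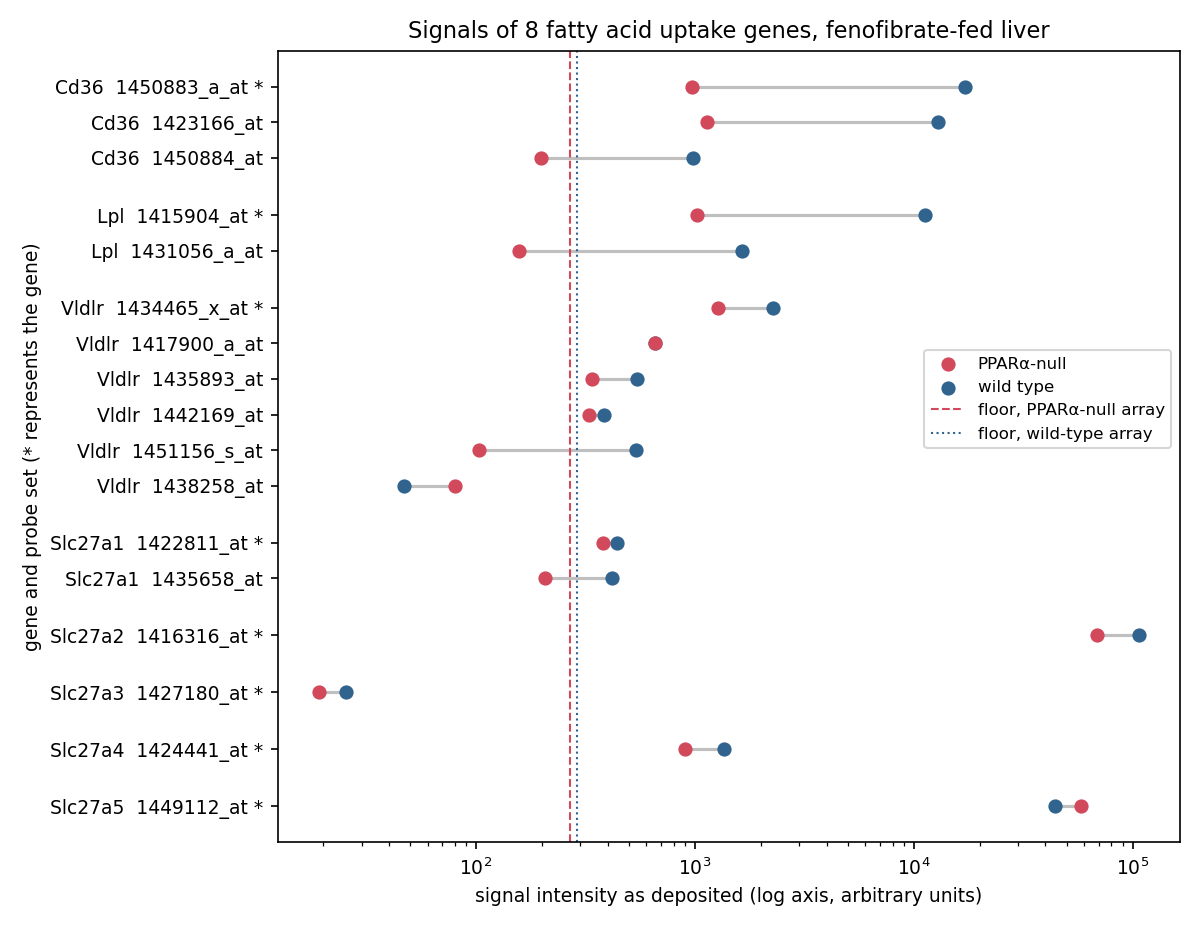
Signal intensity (log axis) of the 17 probe sets of the 8 genes in PPARα-null (red) and wild-type (blue) liver, each point 1 array of pooled RNA, with both floors as vertical lines and an asterisk at the probe set that represents its gene. The grey bars are longest for Cd36 and Lpl, where null signals of 966.4 and 1027 stand against 17156 and 11278 in wild type.

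Lpl was 11.0-fold lower in null liver. Its brighter probe set (1415904_at) gave 1027 in null liver and 11278 in wild type, a log2 ratio of -3.46. The dimmer one (1431056_a_at) gave 156.9 in null, under the floor, and 1637 in wild type, which makes it at least 6.08-fold lower. Both probe sets of Lpl thus pointed the same way, and the null signal of the brighter one was 3.81 times the floor. Its log2 ratio ranked 5 from the lowest among 10060 genes measured on both arrays.

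Cd36 had the largest ratio of the 8 genes, 17.8-fold lower in null liver. At the representing probe set (1450883_a_at) the signal was 966.4 in null and 17156 in wild type, a log2 ratio of -4.15 that ranked 4 from the lowest of the 10060 genes. A second probe set (1423166_at) gave 1130.5 in null and 12961 in wild type, which is 11.5-fold lower. At the dimmest (1450884_at), null liver had 198.2, under the floor, and wild type 981.4, a difference of at least 3.64-fold. The size of the Cd36 difference therefore depended on the probe set, with log2 ratios from -4.15 to -1.87 after the floor, while the direction was the same at all 3. Both Cd36 probe sets above the floor in null liver were also above the brightest Bacillus control spot of that array (422.4), a set of bacterial probe sets that should have no target in liver RNA.

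**Figure D2:**
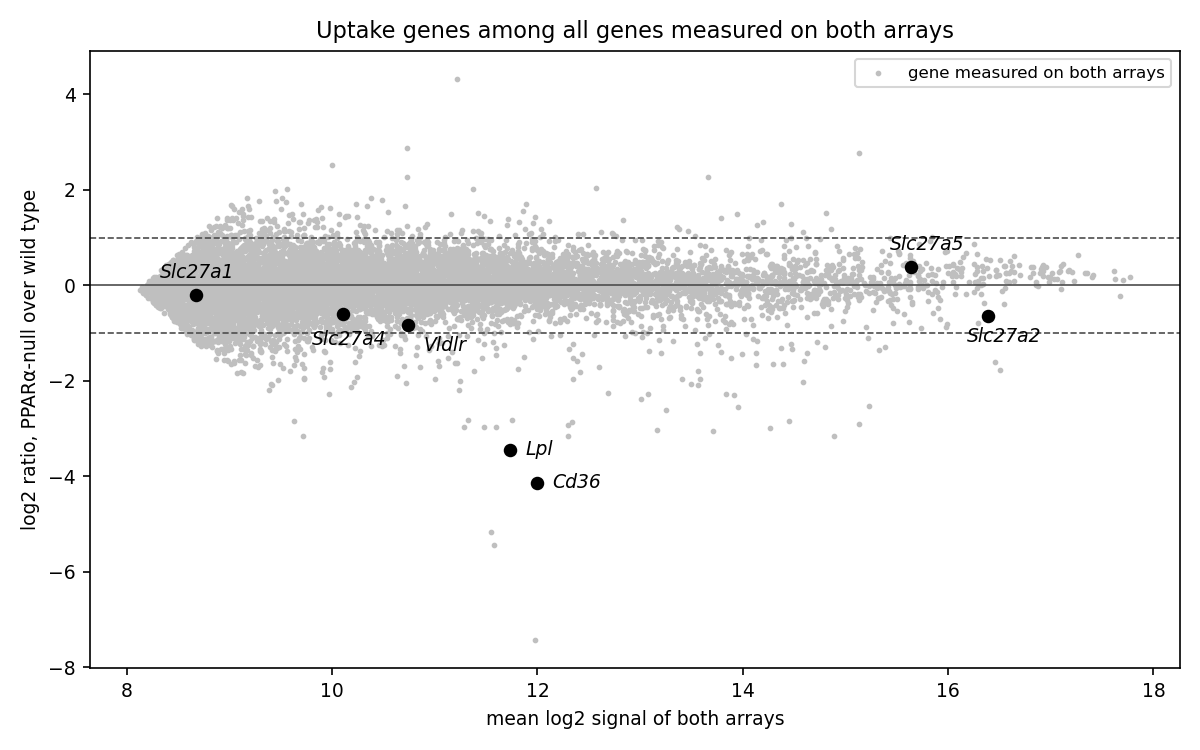
Log2 ratio of PPARα-null over wild type against the mean log2 signal for the 10060 genes measured on both arrays (grey), with the 7 measured uptake genes in black and dashed lines at 2-fold. Cd36 (-4.15) and Lpl (-3.46) lie well under the grey band, and the other 5 genes lie between the dashed lines.

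Vldlr, a receptor for lipoproteins that carry apolipoprotein E and for the signalling protein reelin, gave different answers at its 6 probe sets. The one that represents it (1434465_x_at) had 1280 in null and 2274 in wild type, 1.78-fold lower in null with a log2 ratio of -0.83. Its suffix marks probes that may also bind other transcripts. A probe set without that mark (1417900_a_at) gave 654.5 in null and 657.9 in wild type, a log2 ratio of -0.01. At 1435893_at the signals were 337.1 in null and 542.1 in wild type, and at 1442169_at they were 329.1 in null and 382.8 in wild type, with log2 ratios of -0.69 and -0.22. None of these 4 reached 2-fold. The probe set 1451156_s_at gave 103.1 in null, under the floor, and 536.7 in wild type, so at least 1.99-fold lower. The last, 1438258_at, was under the floor in both genotypes, at 79.8 in null and 46.7 in wild type. The 5 measured log2 ratios of Vldlr, of which 1 is a bound, had an SD of 0.42. The SD between probe sets over all genes was also 0.42 but used only probe sets above both floors, so the 2 are not strictly alike. Without probe sets ending in _x_at or _s_at the log2 ratio of Vldlr was -0.01, so its value depended on the probe set.

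Among the fatty acid transport proteins, the log2 ratios of the 4 measured genes ran from -0.64 to 0.39 and none was called. Slc27a2 encodes an acyl-CoA synthetase for very long chains that is abundant in liver and kidney. Its only probe set (1416316_at) gave 68536 in null liver and 106708 in wild type, 1.56-fold lower. Slc27a5, the liver form that activates bile acids for conjugation, was the only measured gene of the 8 with a higher signal in null liver, 58326 against 44429 in wild type. That is 1.31-fold higher, with a log2 ratio of 0.39. Both had signals far above the floors and the Bacillus controls. Slc27a2 and Slc27a5 thus differed from wild type in opposite directions, each by less than 2-fold.

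Slc27a4, the form best known from intestine and skin, gave 897.0 in null and 1355 in wild type, 1.51-fold lower. Slc27a1, the form best known from muscle and adipose tissue, gave 381.1 in null and 439.2 in wild type at its brighter probe set, 1.15-fold lower. Its other probe set had 206.7 in null, under the floor, and 417.7 in wild type, so at least 1.55-fold lower. The null signals of both Slc27a1 probe sets lay under the brightest Bacillus control. Slc27a3 had signals of 19.1 in null and 25.5 in wild type, under the floor in both, and its ratio was not read. No probe set with 1 gene symbol named Slc27a6, the remaining gene of the family.

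How far these ratios stand from other genes depends on the signal. Among genes measured on both arrays, the 5th to 95th percentile of log2 ratios ran from -1.04 to 0.87 in the dimmest of 4 equal groups, which holds Slc27a1, and from -0.88 to 0.85 in the next, which holds Slc27a4. The range was -0.66 to 0.73 in the third, with Lpl and Vldlr, and -0.72 to 0.67 in the brightest, with Cd36, Slc27a2 and Slc27a5. The ratios of the 4 measured Slc27 genes lay inside these ranges. Vldlr lay just under its range at the representing probe set, and Lpl and Cd36 lay far under theirs. Among the 10060 genes, 5.74% had a lower ratio than Vldlr, 9.99% a lower ratio than Slc27a2 and 11.2% a lower ratio than Slc27a4. For Slc27a5, 19.3% had a higher ratio.

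Of 15 measured genes of the maturation and control of lipoprotein lipase, 1 was called lower and 0 higher, with a median log2 ratio of 0.15. These counts are near the shares of all measured genes, 4.99% lower and 2.80% higher. The called gene was Angptl4, a secreted inhibitor of the lipase, at 6080 in null and 12181 in wild type, which is 2.0-fold lower and at the threshold. Its other probe set was under the floor in both genotypes. Angptl8, another regulator of the lipase, had 873 in null and 553 in wild type (1.58-fold higher), and Furin, a protease that cleaves the lipase, had 3621 in null and 2320 in wild type (1.56-fold higher). Gpihbp1, which anchors the lipase to capillary endothelium, gave 3286 in null and 2953 in wild type, and the activator Apoc2 gave 31180 in null and 27678 in wild type. Both were named after their values were seen, and both lay within 1.13-fold.

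Among 3 measured relatives of the lipase, Lipg, the endothelial lipase, was called lower, where 4.99% of all measured genes were. It had 300 in null and 927 in wild type, a 3.09-fold difference whose null signal lies under the brightest Bacillus control. A second Lipg probe set pointed the same way with a null signal under the floor, and the third was under both floors. Pla1a, a phospholipase of the same family, was 1.39-fold higher in null (3145 against 2264 in wild type). Pnliprp2 was above the floor in null only, at 338, and was at least 1.17-fold higher there.

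Relatives and partners of CD36 had 0 called genes among 10 measured, with a median log2 ratio of 0.15, and with 4.99% of all measured genes called lower and 2.80% higher this count is near the background. Cavin1, a coat protein of caveolae, had 246 in null, under the floor, and 490 in wild type, so at least 1.82-fold lower. Caveolin 1 (Cav1) had 651 in null and 521 in wild type, and the kinase gene Fyn had 983 in null and 796 in wild type (log2 ratios of 0.32 and 0.31). A second Fyn probe set ran the other way. The closest relatives by sequence, Scarb1 and Scarb2, named after their values were seen, were 1.21-fold and 1.09-fold higher in null, and a second Scarb2 probe set ran the other way.

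The LDL receptor family and its partners, the list nearest to Vldlr, had 14 measured genes with a median log2 ratio of -0.05, 1 called lower and 1 higher, also near the shares of 4.99% and 2.80% over all measured genes. Dab1, the adaptor that carries the reelin signal from the VLDL receptor, had 398 in null and 1001 in wild type (2.52-fold lower). Sorl1, a sorting receptor with LDL receptor repeats, had 769 in null and 321 in wild type (2.40-fold higher). The dimmer signal of each lay near or under the brightest Bacillus control of its array (422.4 in null and 316.5 in wild type). Lrp12 was 1.48-fold lower. Another Dab1 probe set gave 112.2 in null, under the floor, and 673.9 in wild type, so at least 2.50-fold lower. At 1 more, null had 299.4 and wild type 423.6 (1.41-fold lower). The other 2 Dab1 probe sets and the other 2 of Sorl1 were under both floors.

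The step after uptake is the binding of fatty acids in the cytosol and their activation to acyl-CoA. All 11 measured genes of this list had log2 ratios under 0, against 50.4% of all measured genes, with a median of -0.76 against -0.005. Of the 11, 3 were called lower and 0 higher, where 4.99% and 2.80% of all measured genes were. These were Acsl5, an acyl-CoA synthetase (13469 in null and 33329 in wild type, 2.47-fold lower), Fabp2, a fatty acid binding protein best known from intestine (6285 in null and 13829 in wild type, 2.20-fold lower), and Fabp4, the binding protein of adipocytes (896 in null and 1906 in wild type, 2.13-fold lower). A list with 6 measured genes was drawn up for bile acid side chain and amide formation, the pathway of Slc27a5. Of these 6, Hsd17b4 was called lower (14298 in null and 43029 in wild type, 3.01-fold). Acox2 was 1.12-fold lower. Hacl1, which the list holds although it is not an enzyme of that pathway, was 1.84-fold lower. Baat, which joins bile acids to amino acids, was named after its value was seen and lay at 9738 in null and 9900 in wild type.

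**Figure D3:**
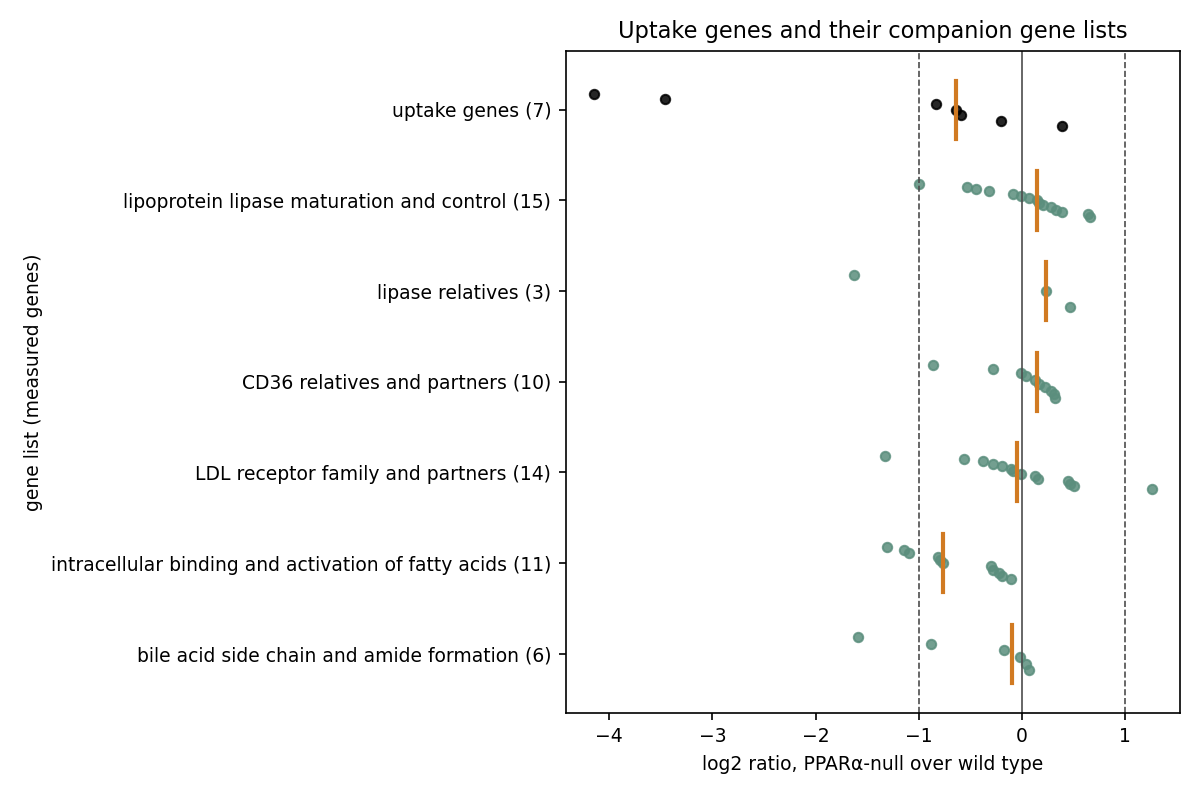
Log2 ratio of PPARα-null over wild type for each measured gene (points) of the uptake genes (black) and 6 companion lists (green), with the list median as an orange bar, the number of measured genes in parentheses and dashed lines at 2-fold; bounds are plotted at their floor value. The medians of the uptake genes (-0.64) and of intracellular binding and activation (-0.76) lie furthest to the left.

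By distance in the plane of both log2 signals, the genes most like Lpl among those measured on both arrays were Pltp at 0.39, Plin5 at 0.44 and Abhd6 at 0.50. They were 7.87-fold, 7.11-fold and 7.85-fold lower in null. The nearest to Cd36 were Rtn4 at 0.82, Cox6b2 at 0.95 and Acot3 at 0.97, which were 8.95-fold, 35.8-fold and 7.60-fold lower. The distance uses 2 arrays and compares signals of different probe sets, so it describes the plot and nothing more.

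Cd36 and Lpl are also made by adipocytes, muscle, macrophages and endothelium, and in bulk tissue fewer cells of a type and less RNA per cell cannot be told apart. Of 7 adipocyte markers on the array, 4 were under the floor in both genotypes, among them the defining genes Adipoq, at 112 in null and 50.6 in wild type, and Lep, at 190 in null and 21.5 in wild type. Cidec had 23.5 in null and 172 in wild type, and Retn had 86.2 in null and 129 in wild type. Of the 3 measured markers, Fabp4 was lower by a size that depended on the probe set, as given above. Plin4 was at least 1.36-fold lower (61.7 in null and 366 in wild type), and Lipe had 472 in null and 460 in wild type. The summed signal of the 7, which includes signals under the floor as do all sums here, was 1842 in null and 3105 in wild type. Of 8 striated muscle markers, 4 were under both floors. Of the 4 measured, 2 were called lower in null, where 4.99% of all measured genes were. Both had null signals under the floor. Summed signals of the 8 were 1263 in null and 3165 in wild type. Acta1, skeletal muscle actin, had 230 in null and 1224 in wild type (at least 4.54-fold lower), and Tnnt3, a fast muscle troponin, had 11.6 in null and 549 in wild type (at least 2.04-fold lower). Ckm, muscle creatine kinase, had 308 in null and 422 in wild type (1.37-fold lower), and Mylpf, a fast muscle myosin light chain, had 368 in null and 300 in wild type (1.23-fold higher). Myh4, Tnnc2, Myh6 and Tnni3 were under both floors. The part of muscle or adipose RNA in the Cd36 and Lpl differences was not tested.

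Macrophage markers ran the other way, with 8 of 9 measured genes above 0, a median log2 ratio of 0.44 and a summed signal of 25718 in null and 18442 in wild type. Over all measured genes, 50.4% had log2 ratios under 0, 4.99% were called lower and 2.80% were called higher. Cd5l, a secreted protein of tissue macrophages, was called higher (4052 in null and 1910 in wild type, 2.12-fold). Of 10 endothelial markers, 7 were above 0 with a median of 0.13, and the sums were 26599 in null and 23396 in wild type. Pecam1, an adhesion molecule of endothelium and platelets, was called lower, at 228 in null, under the floor, and 637 in wild type (at least 2.36-fold). The part of these cells in the results was not tested. Platelet markers summed to 2073 in null and 2466 in wild type, and lymphocyte markers to 2052 in null and 2265 in wild type. Sums were 13665 in null and 11250 in wild type for stellate cells, 1200 in null and 931 in wild type for cholangiocytes, and 7759 in null and 4716 in wild type for erythroid cells. Within these 3 lists the directions were mixed. Log2 ratios were above 0 for 3 of 6 measured stellate markers, 2 of 3 cholangiocyte markers and 2 of 3 erythroid markers. The erythroid gene Alas2 had 7033 in null and 4190 in wild type, and Hba-a1 had 251 in null, under the floor, and 333 in wild type. Ptprc, the pan-leukocyte phosphatase, was the only called gene of these lists, at 364 in null and 823 in wild type (2.26-fold lower). All 9 measured hepatocyte markers, such as Tat (79342 in null and 58150 in wild type), were present on both arrays and higher in null, with log2 ratios from 0.14 to 0.66, so both pools carried liver RNA. Fabp4, Gpihbp1 and Reln stand in a companion list as well as in a marker list.

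**Figure D4:**
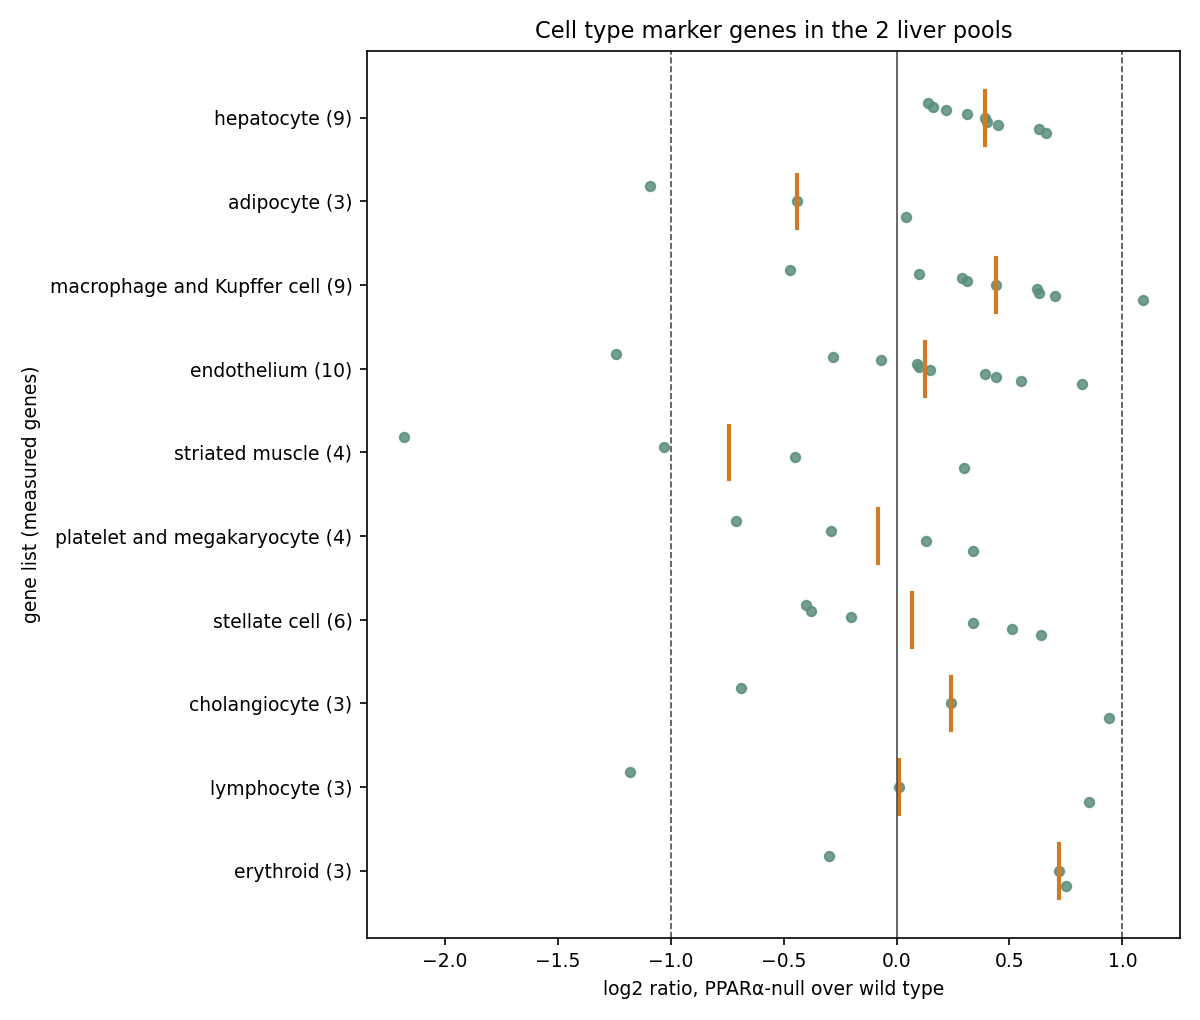
Log2 ratio of PPARα-null over wild type for measured cell type markers (points), with list medians as orange bars, the number of measured genes in parentheses and dashed lines at 2-fold; bounds are plotted at their floor value. Hepatocyte and macrophage markers lie mostly right of 0, and muscle markers, with a median of -0.74, mostly left of it.

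Of the smaller differences, only those of Vldlr and Slc27a2 crossed the threshold under another scaling of the arrays. Median centring, quantile normalization and loess left Cd36 and Lpl as the only called uptake genes. Scaling to the hybridization controls, bacterial and phage transcripts added at known amounts, shifted all log2 ratios down alike, and the median of all measured genes became -0.38. The changes below restate that shift. Vldlr (-1.21) and Slc27a2 (-1.02) were then called lower beside Cd36 (-4.53) and Lpl (-3.84), so 4 of 7 were called, where 13.5% of all measured genes were. Genes lower in null made up 94.2% of all calls under that scaling and 64.1% as deposited. Slc27a5 lay at 0.01 under it.

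**Figure D5:**
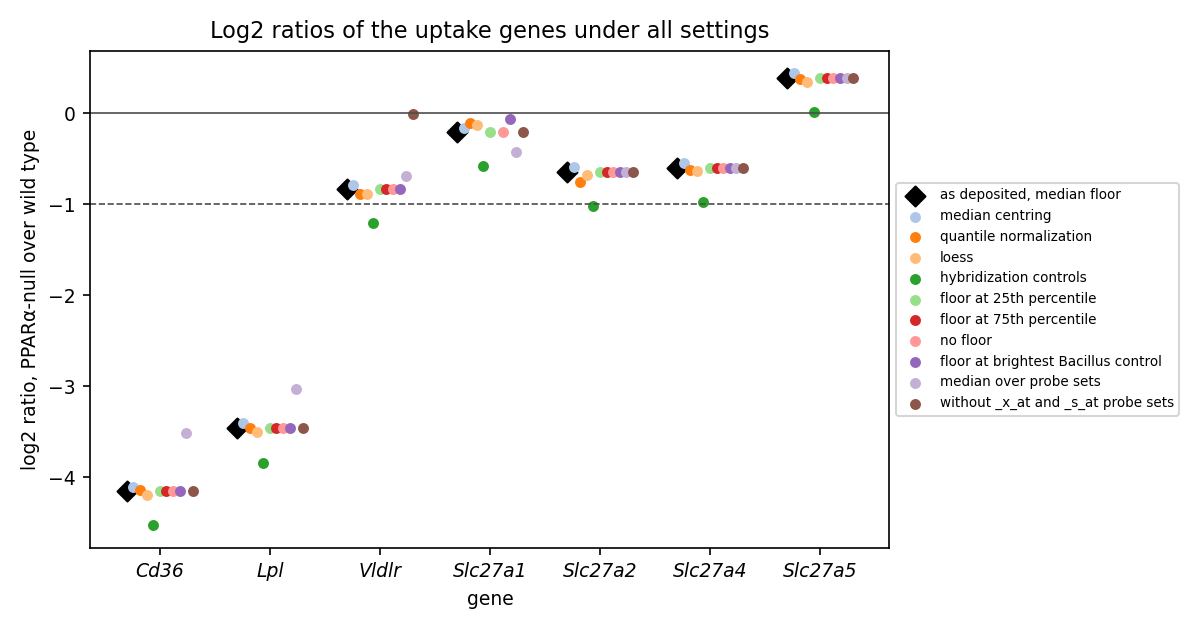
Log2 ratio of PPARα-null over wild type for the 7 measured uptake genes as deposited (black diamonds) and under 10 other settings (coloured points), with a dashed line at 2-fold lower. Cd36 stays between -4.53 and -3.52 and Lpl between -3.84 and -3.03, while Vldlr ranges from -1.21 to -0.01.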

How the data were processed

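Liver RNA of 2 genotypes, 1 pool of 3 mice each, was measured on 1 array per pool. Per the labels, the authors summarised each probe set to 1 signal intensity with the Affymetrix statistical algorithm and scaled each array to a target of 1000. The mean without the outer 2% at each end was 1000.01 on both arrays. The labels give identical scan metrics for both arrays, so the scan metrics were not used. The software version is not given in the sources used. The number of arrays limits the precision.

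Control probe sets aside, the platform annotation of 2016 gave 1 gene symbol for 34945 of 45037, several for 932 and none for 9160. Probe sets with several or none were left out. Of 18194 pairs of gene symbol and identifier, 18032 had their identifier in RefSeq, and 0 symbols changed. Deposited intensities were floored and compared as log2 ratios with Python 3.11.15, numpy 2.4.6 and pandas 2.3.3, and the code was tested on simulated data. Loess used a span of 0.3 in statsmodels 0.14.6. Alternatives concerned scaling, floor, probe set choice and fold threshold.

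All 8 genes were named with every probe set. From each companion list the genes at least 2-fold apart were named, filled up to 3 by size, and for called genes the 3 nearest genes. The genes, lists and settings were chosen with earlier results of these data known. Protein sequences were not used here.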

Additional observations from a re-analysis of the deposited data

How the results depend on the processing

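Cd36 and Lpl were at least 2-fold lower in null in all 11 settings of scaling, floor and probe set choice, and also at 3-fold. The count of uptake genes called lower was 4 with scaling to the hybridization controls and 5 at a 1.5-fold threshold, against 2 as reported. The median over probe sets gave -3.52 for Cd36 and -3.03 for Lpl. Vldlr, Slc27a1, Slc27a2 and Slc27a4 stayed under 0 in each setting that measured them, and Slc27a5 lay between 0.01, with scaling to the hybridization controls, and 0.44. Slc27a1 was not measured with the floor at the 75th percentile, and Slc27a3 was measured only without a floor.

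Counts over all genes depended far more on the settings. As reported, 651 genes were called lower and 365 higher in null. There were 1759 and 109 when hybridization controls set the scale, 2336 and 1650 for a floor at the 25th percentile, and 157 and 98 at the 75th. Without a floor there were 3096 and 2177, at 1.5-fold 1925 and 1439, and at 3-fold 132 and 58. With floors at the brightest Bacillus controls 297 were lower, and lower genes made up 49.5% of the calls. Dim signals limit what can be read for Slc27a1 and Slc27a3, and 1 array per genotype limits every value.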
